A study of Homo sapiens with 8 samples.

Results

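The genes described here are 10 members of the BCL-2 family, chosen by name from the 60282 genes of the count table: the anti-apoptotic genes BCL2L1, MCL1 and BCL2A1, and the BH3-only genes BCL2L11, BBC3, PMAIP1, BID, BIK, BMF and BAD. All 10 names were found, each on a single row. SK-UT-1, an established human uterine leiomyosarcoma (uLMS) cell line, was treated for 48 h with 5 µM TP-472, a small molecule that the sample labels call a BRD9/7 inhibitor, or with the solvent DMSO as vehicle, and total RNA was sequenced from 4 replicates of each. The study describes its experiments in general as having biological replicates, but neither its methods nor the labels say how the cultures behind these libraries were kept apart, so the p-values measure the spread between these libraries. The comparison rests on 1 cell line at 1 dose and 1 time, without an inactive control compound, and in bulk RNA fewer cells expressing a gene cannot be told apart from less of its RNA per cell. The total count was 32574716 to 36634184 in the vehicle libraries and 36246466 to 38545695 in the TP-472 libraries.

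Proteins of the BCL-2 family decide whether the outer mitochondrial membrane stays closed or lets cytochrome c out, the step that commits a cell to the intrinsic pathway of apoptosis. BAX and BAK open the membrane, anti-apoptotic proteins such as BCL-XL (from BCL2L1), MCL-1 and A1 (from BCL2A1) hold them back, and BH3-only proteins carry stress signals by binding the anti-apoptotic proteins or by activating BAX and BAK. Each BH3-only protein has its own partners: NOXA (from PMAIP1) binds mainly MCL-1, BAD binds BCL-XL and BCL-2, and BIM (from BCL2L11) and PUMA (from BBC3) bind them all. Many of these genes are controlled at the level of transcription, and MCL-1 and NOXA in particular are short-lived proteins, so RNA gives only part of the picture. The counts are summed by gene, and splice forms with opposite activity, such as the long form and the short form of BCL2L1, were not separated.

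Levels are given as CPM, counts divided by the size of the library as scaled with the TMM method. The test was edgeR's quasi-likelihood test, run on the 14073 genes that exceeded 1 CPM in 4 or more libraries, and differential expression here means a change of more than 1.5-fold together with a Benjamini-Hochberg adjusted p-value below 0.05. Each fold change divides the TP-472 level by the vehicle level, and SE is its standard error. Of the 10 members, 9 were tested and BCL2A1 was too low. BIK passed the filter only through the TP-472 libraries, as it was under 1 CPM in every vehicle library, and the other 8 tested members were above 1 CPM in all 8 libraries. With TP-472, MCL1, BCL2L11, PMAIP1 and BIK were differentially expressed upward and BBC3 and BMF downward, while BCL2L1, BID and BAD did not pass. Among all genes tested, 26.9% were differentially expressed, 12.0% upward and 14.9% downward. In 7 of the 9 tested members the ranges of the TP-472 and vehicle libraries did not overlap, as was the case for 45.4% of all genes tested. BIK is among these 7, and the filter fixed its separation before any comparison. Without vehicle replicate 3, a library described next, 5 members were differentially expressed, the same 4 upward and BMF downward, against 25.5% of all genes (12.0% upward, 13.4% downward). The groups were then apart for 7 members, BIK again among them, against 58.5% of all genes. With the GC trend of each library removed, 4 members were called (MCL1, PMAIP1, BIK and BMF), against 28.3% of all genes. The members therefore did not move as a block: within the BH3-only genes, 3 were called higher (BIK among them, which had to be higher to be tested), 2 lower and 2 not at all.

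**Figure D1:**
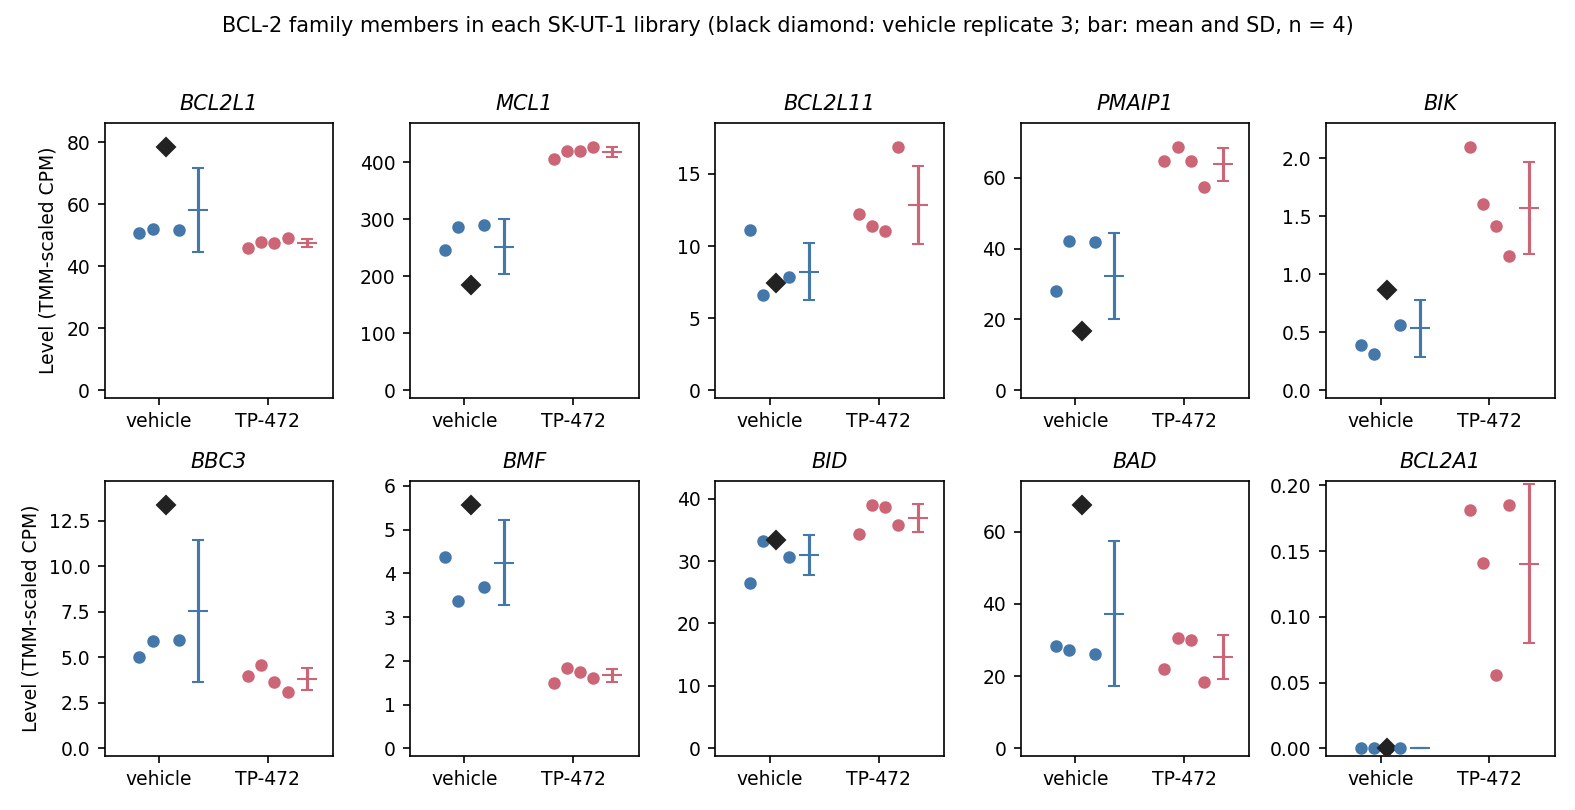
Level of each BCL-2 family member (TMM-scaled CPM, linear axes with a scale of their own in each panel) in the 4 vehicle and 4 TP-472 libraries; each point is a library, black diamonds mark vehicle replicate 3, and bars are the mean and SD (n = 4). MCL1 and PMAIP1 were higher and BMF was lower in every TP-472 library, and vehicle replicate 3 was far above the other vehicle libraries for BCL2L1, BBC3 and BAD.

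One library has to be described before the single genes. Vehicle replicate 3 differed from the mean of the other vehicle libraries by a median of 0.598 on the log2 scale over all genes tested, against 0.186 to 0.277 for vehicle replicates 1, 2 and 4 and 0.07 to 0.149 for the TP-472 replicates, each measured against the rest of its group. Its difference followed the GC content of the transcripts: the median over genes was -0.817 under 40% GC and 1.37 above 65% GC, on the log2 scale. The members spread over the same range. BAD, with 64.9% GC, was 1.30 higher in vehicle replicate 3 than in the other vehicle libraries on the log2 scale, and BBC3, with 64.8% GC, was 1.24 higher. PMAIP1, with 41.4% GC, was lower in that library, with a difference of -1.13, and MCL1, with 48.9% GC, differed by -0.56. In all, 6 of the 9 tested members were above and 2 below the range of the other vehicle libraries, and 86.9% of all genes tested were outside that range. For 7 of the 9 members the fold change was nearer to 0 without this library, and BID and BIK were the exceptions. For these 7 it differed from the other vehicle libraries in the direction opposite to TP-472, as it did for 56.8% of all genes tested. The fold changes of the tested members are therefore also given without it.

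**Figure D2:**
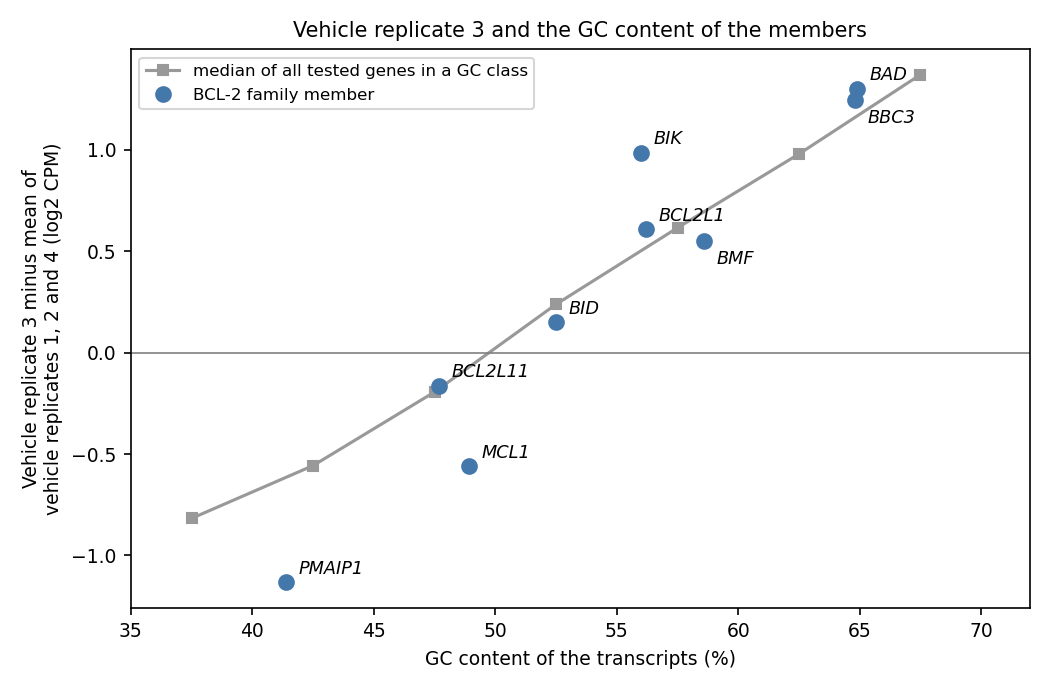
Difference of vehicle replicate 3 from the mean of vehicle replicates 1, 2 and 4 (log2 CPM, vertical axis) against the GC content of the transcripts (percent, horizontal axis) for the 9 tested members (blue points) and, as grey squares, the median of all tested genes in 7 classes of GC content, of which the outer classes are drawn at a nominal centre. The members rise from PMAIP1 at -1.13 to BAD at 1.30, much as the grey line does.

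MCL1 (ENSG00000143384.13; chromosome 1 from 150574551 to 150579738 on GRCh38, minus strand) was the most abundant member. Its level was 247, 287, 186 and 291 CPM in vehicle replicates 1 to 4 and 407, 419.7, 420.2 and 427 CPM in TP-472 replicates 1 to 4. All TP-472 libraries were above all vehicle libraries and lay close together. The mean rose from 252 ± 48.7 to 418 ± 8.44 CPM (SD, n = 4 each), that is, a log2 fold change of 0.73 (SE 0.147, adjusted p = 0.00601), or 1.66-fold. Without vehicle replicate 3 the log2 fold change was 0.61 (SE 0.0728, adjusted p = 1.08e-04), just over the 1.5-fold limit. The call was lost when the libraries were weighted by quality in limma-voom (log2 fold change 0.54, adjusted p = 3.95e-07), where the change fell under 1.5-fold. MCL1 protein is known for binding NOXA, BIM and BAK.

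BCL2L1 (ENSG00000171552.13; chromosome 20 from 31664452 to 31723989, minus strand) behaved otherwise. Its level was 50.7, 52.1, 78.5 and 51.7 CPM in vehicle replicates 1 to 4 and 46.0, 47.9, 47.6 and 49.1 CPM in TP-472 replicates 1 to 4. The TP-472 libraries were all slightly below the vehicle libraries, and vehicle replicate 3 stood alone above the rest. The log2 fold change of -0.29 (SE 0.153, adjusted p = 0.161) did not pass, and without vehicle replicate 3 it was -0.11 (SE 0.0535, adjusted p = 0.0996). In that fit the vehicle mean was 51.5 ± 0.726 CPM (SD, n = 3) against 47.6 ± 1.31 CPM (SD, n = 4) with TP-472.

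BCL2A1 (ENSG00000140379.8; chromosome 15 from 79960889 to 79971446, minus strand), a gene known as a target of NF-kB, had no count in any vehicle library and 7, 5, 2 and 7 counts in TP-472 replicates 1 to 4. The vehicle group as a whole had 0 counts, which allows up to 3 counts over the group (0.0213 CPM), and against that limit the level with TP-472 (21 counts, 0.142 CPM) was at least 6.67-fold higher. An exact two-sided permutation test over the 70 assignments of libraries gave p = 0.0286, the smallest it can give for 4 libraries against 4. Limits of this kind cover counting error only. More genes had a count above 0 in each TP-472 library (25386 to 26215) than in any vehicle library (23333 to 23943), and the part of this shift in the result for BCL2A1 was not tested. At this level BCL2A1 was the least expressed of the members in both groups, and the depth does not show whether vehicle-treated cells lacked it.

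PMAIP1 (ENSG00000141682.12; chromosome 18 from 59899948 to 59904306, plus strand) encodes NOXA. It was expressed at 28.2, 42.2, 16.8 and 42.0 CPM in vehicle replicates 1 to 4 and at 64.6, 68.6, 64.8 and 57.4 CPM in TP-472 replicates 1 to 4. The lowest TP-472 library was above the highest vehicle library, and the vehicle libraries differed among themselves more than the TP-472 libraries did. The mean rose from 32.3 ± 12.3 to 63.9 ± 4.67 CPM (SD, n = 4 each), and the log2 fold change was 0.98 (SE 0.263, adjusted p = 0.0192). Without vehicle replicate 3 the log2 fold change was 0.77 (SE 0.135, adjusted p = 0.00103). The call was lost without vehicle replicate 1 (adjusted p = 0.0558), TP-472 replicate 2 (0.0538) or TP-472 replicate 3 (0.0504). In those fits the log2 fold change was 0.92, 0.95 and 0.98. The log2 fold change was 0.87 (adjusted p = 0.00276) when the trend with GC content was removed from each library.

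The bases before the gene starts are shown for PMAIP1, which rose, and BAD, which is described below and did not pass, because these were the 2 members whose upstream window in the RefSeq promoter table held the core of the cyclic AMP response element, searched as TGACGT on both strands and bound by factors of the ATF and CREB families. The table (GRCh38.p14) had an entry for 8 of the 10 members, without MCL1 and BIK. TGACGT was in the 250 bases upstream of the start for 2 of these 8 members and for 7.1% of all 35116 promoters. The stretches end at the base before the gene's first annotated base, run 5′ to 3′ on the gene's strand, and carry the core in capitals. PMAIP1 is shown at chr18:59899746-59899947 (plus strand) and BAD at chr11:64284705-64284915 (minus strand).
PMAIP1: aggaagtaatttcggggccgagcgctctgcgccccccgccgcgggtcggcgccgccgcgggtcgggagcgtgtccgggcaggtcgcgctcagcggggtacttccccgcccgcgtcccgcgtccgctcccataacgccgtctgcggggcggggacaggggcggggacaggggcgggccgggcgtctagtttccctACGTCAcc
BAD: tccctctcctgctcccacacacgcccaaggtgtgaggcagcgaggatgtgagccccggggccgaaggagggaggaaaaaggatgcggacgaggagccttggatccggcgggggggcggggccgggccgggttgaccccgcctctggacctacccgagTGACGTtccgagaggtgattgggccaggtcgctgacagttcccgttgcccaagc
The core began 8 bases before the first annotated base of PMAIP1, where it reads ACGTCA on the gene's strand, and 54 bases before that of BAD. The GC content of the printed stretches was 76.2% and 68.2%. The GC box GGGCGG was found upstream of 4 of the 8 members with an entry and of 42.6% of all promoters, and the forkhead core GTAAACA upstream of BCL2L11 and of 2.98% of all promoters. The E-box CACGTG was found upstream of 2 members (6.34% of all promoters), the AP-1 site TGANTCA upstream of BBC3 (6.57%), the CCAAT box upstream of 3 (32.0%) and TATAAA upstream of BCL2A1 (10.7%). All were searched on both strands, and a match of letters says nothing about binding in these cells.

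BIK (ENSG00000100290.3; chromosome 22 from 43110748 to 43129712, plus strand), whose product acts mainly at the endoplasmic reticulum, had the largest fold change of the tested members at a very low level. It was at 0.388, 0.316, 0.868 and 0.562 CPM in vehicle replicates 1 to 4 and at 2.10, 1.61, 1.42 and 1.16 CPM in TP-472 replicates 1 to 4. These levels correspond to 11 to 30 counts per vehicle library and 44.0 to 81 counts per TP-472 library. The groups did not overlap, but the filter fixed this in advance, since only the treated libraries exceeded 1 CPM. The log2 fold change was 1.55 (SE 0.333, adjusted p = 0.00769), a 2.93-fold increase. Vehicle replicate 3 was the highest vehicle library, and without it the log2 fold change was 1.89 (SE 0.292, adjusted p = 4.92e-04). More genes were detected in each TP-472 library, as given for BCL2A1, and the part of this shift for BIK was not tested.

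BCL2L11 (ENSG00000153094.24; chromosome 2 from 111119378 to 111168447, plus strand) encodes BIM, the most broadly binding BH3-only protein together with PUMA. Its level was 11.1, 6.58, 7.41 and 7.84 CPM in vehicle replicates 1 to 4 and 12.2, 11.4, 11.0 and 16.9 CPM in TP-472 replicates 1 to 4. The groups overlapped by a small amount, since vehicle replicate 1 was above TP-472 replicate 3, and TP-472 replicate 4 was well above the other treated libraries. The log2 fold change was 0.64 (SE 0.206, adjusted p = 0.0375), and the exact two-sided permutation test on this gene alone gave p = 0.0571. With vehicle replicate 3 left out the log2 fold change was 0.60 (adjusted p = 0.0286). Its call was the least stable of the 4 increases. It was lost when any of vehicle replicates 2 and 4 or TP-472 replicates 1 to 4 was left out, with log2 fold changes between 0.49 and 0.71 and adjusted p-values from 0.0578 to 0.0996 in those fits. The long noncoding gene MIR4435-2HG lies across BCL2L11 on the opposite strand, with 1792 to 3078 counts per library. The study describes strand-specific libraries, but whether the counting used strand is not given in the sources used here, so reads of the pair may not have been kept apart.

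BBC3 (ENSG00000105327.18; chromosome 19 from 47220822 to 47232766, minus strand) encodes PUMA, which binds all the anti-apoptotic proteins of the family. It was at 5.02, 5.92, 13.3 and 5.93 CPM in vehicle replicates 1 to 4 and at 3.96, 4.57, 3.63 and 3.12 CPM in TP-472 replicates 1 to 4. The treated libraries all lay under the vehicle libraries, and vehicle replicate 3 was far above the other 7. The log2 fold change was -0.98 (SE 0.315, adjusted p = 0.0378). Without vehicle replicate 3 it was -0.56 (SE 0.148, adjusted p = 0.00988), which kept the direction and the adjusted p-value but not the 1.5-fold limit, and with the GC trend removed it was -0.44 (adjusted p = 0.0174). When any of the 4 TP-472 replicates was left out, the call was lost at adjusted p-values from 0.0651 to 0.0969. The log2 fold change stayed about as large in those fits, between -1.08 and -0.90. The vehicle mean of BBC3 without replicate 3 was 5.62 ± 0.525 CPM (SD, n = 3) and the TP-472 mean 3.82 ± 0.607 CPM (SD, n = 4).

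BMF (ENSG00000104081.14; chromosome 15 from 40087890 to 40108892, minus strand), whose product is known to bind dynein light chains at the cytoskeleton, fell the most. It was at 4.38, 3.36, 5.56 and 3.68 CPM in vehicle replicates 1 to 4 and at 1.501, 1.83, 1.75 and 1.61 CPM in TP-472 replicates 1 to 4. The highest treated library was well below the lowest vehicle library. The mean fell from 4.25 ± 0.973 to 1.67 ± 0.146 CPM (SD, n = 4 each), and the log2 fold change was -1.34 (SE 0.197, adjusted p = 0.00141), a 2.53-fold decrease. BMF kept its call with any 1 library left out, at log2 fold changes from -1.44 to -1.19 (without vehicle replicate 3, adjusted p = 1.93e-04), and it was -1.08 (adjusted p = 2.45e-04) with the GC trend removed.

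The tested members that did not pass were BID and BAD besides BCL2L1. BID (ENSG00000015475.18; chromosome 22 from 17734138 to 17774770, minus strand), which is cleaved by caspase-8 to link death receptors to mitochondria, was at 26.5, 33.3, 33.3 and 30.6 CPM in vehicle replicates 1 to 4 and at 34.3, 38.9, 38.6 and 35.7 CPM in TP-472 replicates 1 to 4. Its treated libraries were all above the vehicle libraries by a narrow margin, at a log2 fold change of 0.25 (SE 0.112, adjusted p = 0.103). Without vehicle replicate 3 the adjusted p-value was 0.0175 at a log2 fold change of 0.29, under the limit of 1.5-fold. BAD (ENSG00000002330.13; chromosome 11 from 64269830 to 64284704, minus strand), a protein that growth factor kinases inactivate by phosphorylation, was at 28.5, 27.3, 67.3 and 26.1 CPM in vehicle replicates 1 to 4 and at 22.1, 30.6, 30.1 and 18.4 CPM in TP-472 replicates 1 to 4. GPR137 overlaps BAD on the opposite strand, with 294 to 683 counts per library, and the same limit holds. The groups overlapped, and a single library, vehicle replicate 3, set the vehicle mean apart. The log2 fold change of -0.56 (SE 0.329, adjusted p = 0.205) became -0.11 (SE 0.163, adjusted p = 0.587) without that library and -0.0075 (adjusted p = 0.968) with the GC trend removed.

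**Figure D3:**
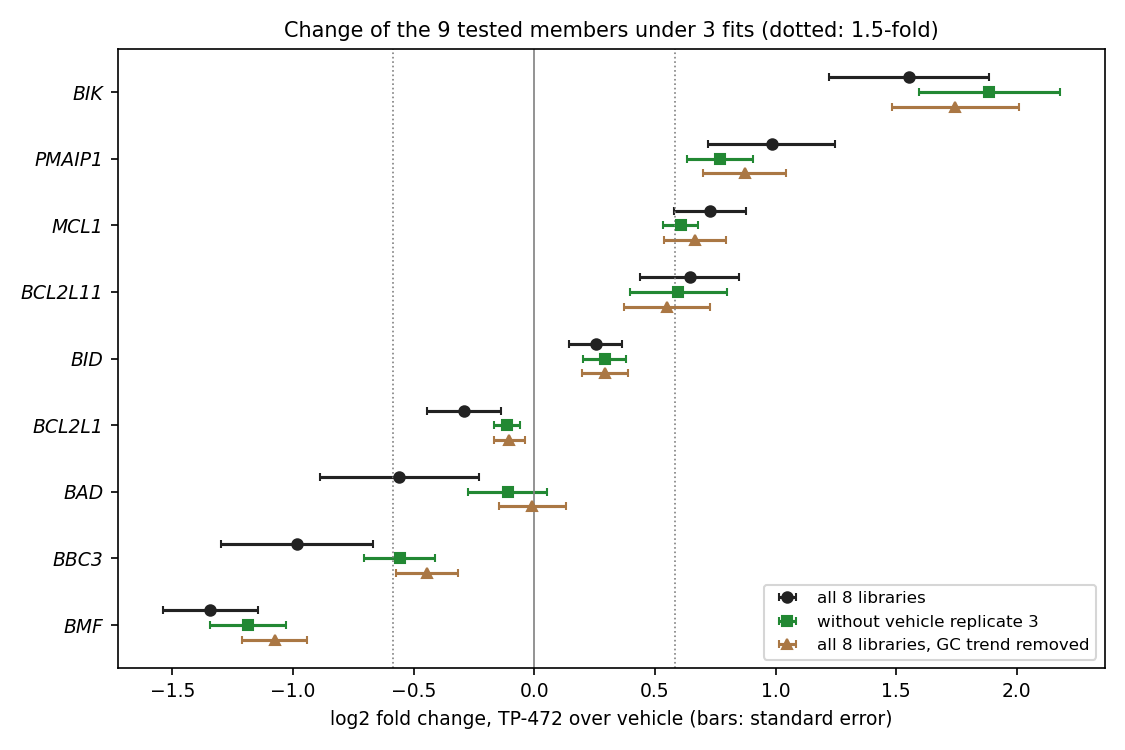
Log2 fold change of TP-472 over vehicle (horizontal axis, bars are SEs) for the 9 tested members with all 8 libraries, without vehicle replicate 3, and with the GC trend of each library removed; dotted lines mark a 1.5-fold change. The estimates for BAD, BBC3 and BCL2L1 moved toward 0 without vehicle replicate 3 and with the GC trend removed, while BIK, PMAIP1, MCL1 and BMF stayed beyond the dotted lines in all 3.

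The levels of different members can be set side by side only per length of transcript, and the division by length is approximate because the counts were summed over all transcripts. With the longest protein-coding transcript of each gene, MCL1 had the highest level in vehicle-treated cells, 64.2 ± 12.4 CPM per kilobase (SD, n = 4). BAD followed at 32.2 ± 17.3, then BCL2L1 at 22.3 ± 5.17 and PMAIP1 at 16.6 ± 6.29 CPM per kilobase, and each of these overlapped with its neighbour in the order, MCL1 and BAD included, although BAD and PMAIP1 did not overlap with each other. The overlap of MCL1 with BAD and of BAD with BCL2L1 rested on vehicle replicate 3: in the other 3 vehicle libraries MCL1 was at 62.8 to 73.9, BAD at 22.5 to 24.6 and BCL2L1 at 19.4 to 19.95 CPM per kilobase, in the same order. BID was next at 12.4 ± 1.28 CPM per kilobase, overlapping with PMAIP1 in vehicle replicate 3 alone, and the others were under 5 CPM per kilobase. In TP-472-treated cells MCL1 stood at 106 ± 2.15 CPM per kilobase, followed by PMAIP1 at 32.8 ± 2.40, BAD at 21.9 ± 5.20, BCL2L1 at 17.6 to 18.8 over the libraries and BID at 14.8 ± 0.893. PMAIP1 was thus in 4th place in vehicle and in 2nd place with TP-472, and its treated range did not overlap with that of BAD per longest transcript but did per median transcript length. With the median transcript length in place of the longest, MCL1 and BAD kept the highest levels in vehicle and MCL1 and PMAIP1 in treated cells, whereas BMF moved from 8th to 6th place in vehicle, because its transcripts range widely in length.

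A ratio of 2 members within a library does not depend on how the libraries are scaled. The GC trend was not removed from these ratios, and BBC3 (64.8% GC), BCL2L1 (56.2%) and MCL1 (48.9%) differ in GC content. The log2 ratio of BCL2L1 to MCL1 in vehicle replicates 1 to 4 was -2.28, -2.46, -1.24 and -2.49, and it was -3.15, -3.13, -3.14 and -3.12 in TP-472 replicates 1 to 4. The treated libraries were nearly identical and all below the vehicle libraries, with a difference of means of -1.02 with all libraries and of -0.72 without vehicle replicate 3. The log2 ratio of PMAIP1 to MCL1, the pair of NOXA and its main partner, was -3.04 ± 0.333 in vehicle and -2.71 ± 0.124 with TP-472 (SD, n = 4 each), and the groups overlapped. For BCL2L11 to MCL1 the means were -4.95 ± 0.458 and -5.05 ± 0.269, again with overlap, so that the increases of PMAIP1 and BCL2L11 were not set apart from that of MCL1 by more than the spread. The ratio of BBC3 to BCL2L1 was lower in every treated library, at -3.65 ± 0.253 against -3.04 ± 0.336, and the ratio of BAD to BCL2L1 overlapped, at -0.95 ± 0.367 against -0.74 ± 0.354. Without vehicle replicate 3 the difference for BBC3 to BCL2L1 was -0.45, still without overlap, and those for PMAIP1 to MCL1, BCL2L11 to MCL1 and BAD to BCL2L1 were 0.18, -0.0006 and -0.028, with overlap. For BBC3 to BCL2L1 the margin was narrow, with the lowest vehicle library at -3.34 and the highest TP-472 library at -3.39.

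**Figure D4:**
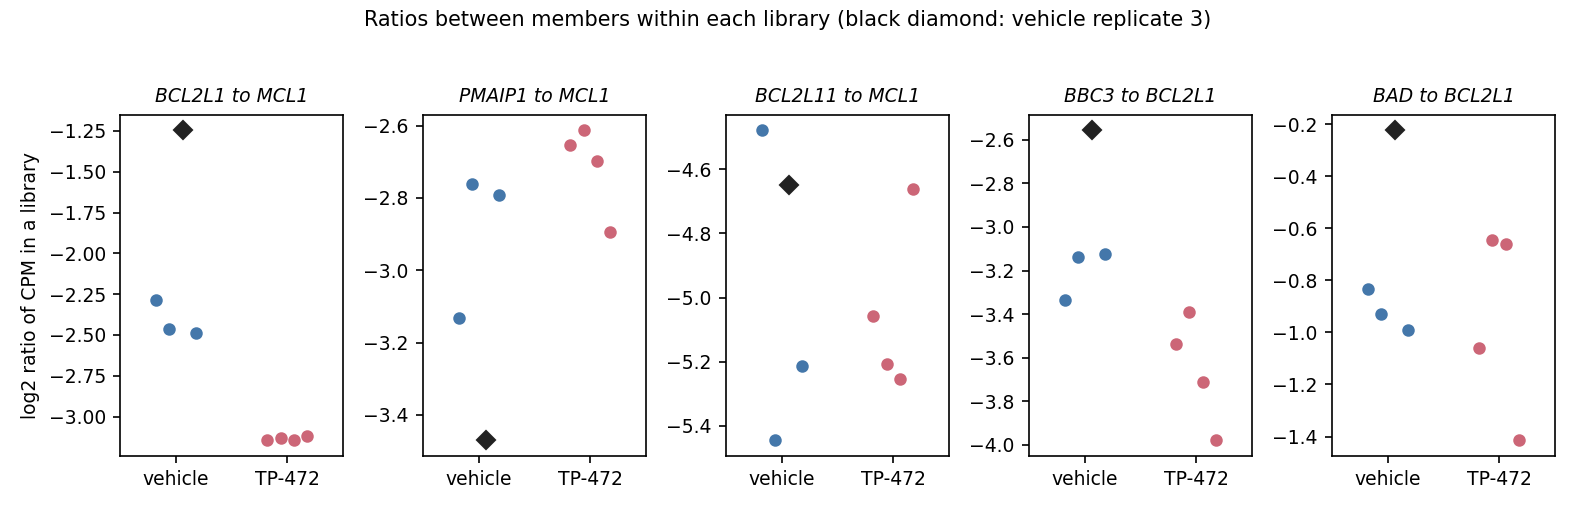
Log2 ratio of CPM between 2 members within each library (vertical axis, with a scale of its own in each panel) for 5 pairs in the vehicle and TP-472 libraries; each point is a library and the black diamond is vehicle replicate 3. BCL2L1 to MCL1 and BBC3 to BCL2L1 separate the groups, and the other 3 pairs overlap.

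The genes whose log2 CPM followed a differentially expressed member most closely over the 8 libraries, restricted to tested genes averaging 5 CPM or more, were listed by Pearson's r as a description. The libraries share the treatment and vehicle replicate 3, which can raise r for many genes, and how common high values are was not measured. MCL1 was followed by CD55 (r = 0.9995), SSR3 and TXNRD1 (0.9988 each), and PMAIP1 by the HSP40 gene DNAJA1 (0.9989), CDC123 (0.9986) and the cathepsin gene CTSL (0.9977). BMF was followed by SERPINB6 (0.9952), APOL1 (0.9913) and IFT122 (0.991), and BBC3 by MAP3K10 (0.9944), MUS81 (0.9943) and UBXN6 (0.9938). For BCL2L11 the closest were AF117829.1 (0.9872), CTPS1 (0.987) and ZBTB39 (0.9812), and for BIK they were HK1 (0.9906), ABCF1 (0.9855) and SYNGR2 (0.9792).

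The other multidomain genes of the family were also measured. Of 10 listed, 7 were tested, 2 were differentially expressed upward and none downward, with a median log2 fold change of 0.027 against -0.026 over all genes tested. Without vehicle replicate 3 the median of the list was 0.22, and BAK1 alone was called. For this list and those below, 12.0% of all genes tested were called higher and 14.9% lower with all libraries. BAK1, which encodes the pore-forming BAK, had a log2 fold change of 0.80 (adjusted p = 0.00184), and BCL2 one of 0.63 (SE 0.124, adjusted p = 0.00541). BCL2 rose from 8.06 ± 0.852 to 12.5 ± 0.614 CPM (SD, n = 4 each), and without vehicle replicate 3 its log2 fold change was 0.56 (adjusted p = 3.95e-04), under the 1.5-fold limit. BAX, the partner of BAK in opening the membrane, was at 21.8 ± 5.10 and 19.7 ± 1.97 CPM, and its log2 fold change was -0.14 (adjusted p = 0.531). Its direction turned to 0.038 (adjusted p = 0.738) without vehicle replicate 3 and to 0.17 (adjusted p = 0.135) with the GC trend removed. Neither BCL2L2, which encodes BCL-w (log2 fold change 0.19, adjusted p = 0.186), nor BOK (-0.29, adjusted p = 0.504) passed, and without vehicle replicate 3 the estimate for BOK was 0.22 (adjusted p = 0.0569). BAK1 was at 0.89 (adjusted p = 3.68e-05) in that fit.

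Among 7 tested of 8 other BH3-only and BH3-like genes, HRK and MOAP1 were differentially expressed upward and none downward (median log2 fold change 0.39). HRK, a BH3-only gene known from neurons, rose from 0.860 ± 0.151 to 2.09 ± 0.252 CPM (SD, n = 4 each), and the log2 fold change was 1.28 (adjusted p = 0.00179). Like BIK, it was under 1 CPM in every vehicle library and passed the filter only through the treated ones. The part of the shift in genes detected was not tested for HRK either. MOAP1, a modulator of BAX, had a log2 fold change of 0.88 (adjusted p = 0.00576). Both calls held without vehicle replicate 3, at 1.33 for HRK and 0.73 for MOAP1.

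All 15 genes listed for cytochrome c, the apoptosome, executioner caspases and their inhibitors were tested. Of these, 4 were differentially expressed upward and none downward (median 0.21), against 26.9% of all genes tested in either direction. The group held genes of opposite roles. BIRC3 and BIRC2, which encode the cellular inhibitors of apoptosis cIAP2 and cIAP1, rose by log2 fold changes of 2.46 (adjusted p = 1.88e-04) and 1.37 (adjusted p = 0.00284). CYCS, the gene of cytochrome c, rose by 1.18 (adjusted p = 0.00688). These 3 calls held without vehicle replicate 3, at 2.26 for BIRC3, 1.16 for BIRC2 and 0.97 for CYCS. APAF1, the scaffold of the apoptosome, picked out after its values were seen, was at -0.51 with all libraries, under the fold limit, and called lower at -0.59 (adjusted p = 5.47e-05) without vehicle replicate 3.

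Of 24 transcription factors listed as known regulators of BCL-2 family genes, 23 were tested, with 2 called higher, 2 lower and 19 not called (median 0.10). ATF3 rose from 6.75 ± 0.781 to 21.1 ± 1.53 CPM (SD, n = 4 each; log2 fold change 1.64, adjusted p = 8.38e-05), and JUN had a log2 fold change of 1.16 (adjusted p = 0.0303), which was 1.72 (adjusted p = 3.92e-07) without vehicle replicate 3. STAT5B fell by 0.76 (a log2 fold change of -0.76, adjusted p = 7.72e-04). ATF3 was at 1.69 and STAT5B at -0.70 without vehicle replicate 3. Leaving out that library gave 7 factors called higher (DDIT3, CEBPB, FOS, MYC and EGR1 in addition, named after their values were seen) and 2 lower (median 0.18). These additional factors were not called with all libraries, where EGR1 was at -0.094. With the GC trend removed, CEBPB (1.11, adjusted p = 2.36e-04) and FOS (0.60, adjusted p = 0.0272) passed. DDIT3 (0.54) and MYC (0.55) were then under the fold limit, as was EGR1 (0.16, adjusted p = 0.731).

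For kinases, ubiquitin enzymes and binding proteins known to act on BCL-2 family proteins, 31 of 32 were tested, 3 were called higher, 5 lower and 23 not called (median 0.027). Without vehicle replicate 3, 2 were called higher and 4 lower, and the median was -0.0049. DUSP6, a phosphatase of ERK, rose from 4.74 ± 0.762 to 29.4 ± 1.15 CPM (SD, n = 4 each; log2 fold change 2.63, adjusted p = 1.74e-05). MAPK3, the gene of ERK1, a kinase that marks BIM for degradation, had a log2 fold change of -0.78 (adjusted p = 0.00727), and its call was lost with the GC trend removed (-0.48, adjusted p = 0.0511). HUWE1, a ubiquitin ligase of MCL-1, was at -0.76 (adjusted p = 0.0137), and the kinase genes PIM1 and AKT2, whose products phosphorylate BAD, were at -1.14 (adjusted p = 0.00336) and -0.69 (adjusted p = 0.0192). The call of AKT2 was lost without vehicle replicate 3 (-0.46, adjusted p = 1.86e-04), while DUSP6 (2.596), MAPK3 (-0.70), HUWE1 (-0.62) and PIM1 (-0.88) kept theirs. USP13, another ubiquitin enzyme of the list picked out after its values were seen, was also called lower (-0.64, adjusted p = 0.00794). That call held without vehicle replicate 3 (-0.67, adjusted p = 0.00155) and with the GC trend removed (-0.79, adjusted p = 8.23e-04). DYNLL2, which encodes the dynein light chain that binds BMF and was picked out after its values were seen, rose from 51.5 ± 0.904 to 78.5 ± 3.26 CPM (log2 fold change 0.61, adjusted p = 0.00117), and its change was under the fold limit with the GC trend removed (0.51). DYNLL1 of the same list was also called higher (0.59, adjusted p = 0.0367). It was under the fold limit without vehicle replicate 3 (0.43, adjusted p = 0.00474) and called with the GC trend removed (0.63, adjusted p = 0.0484).

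**Figure D5:**
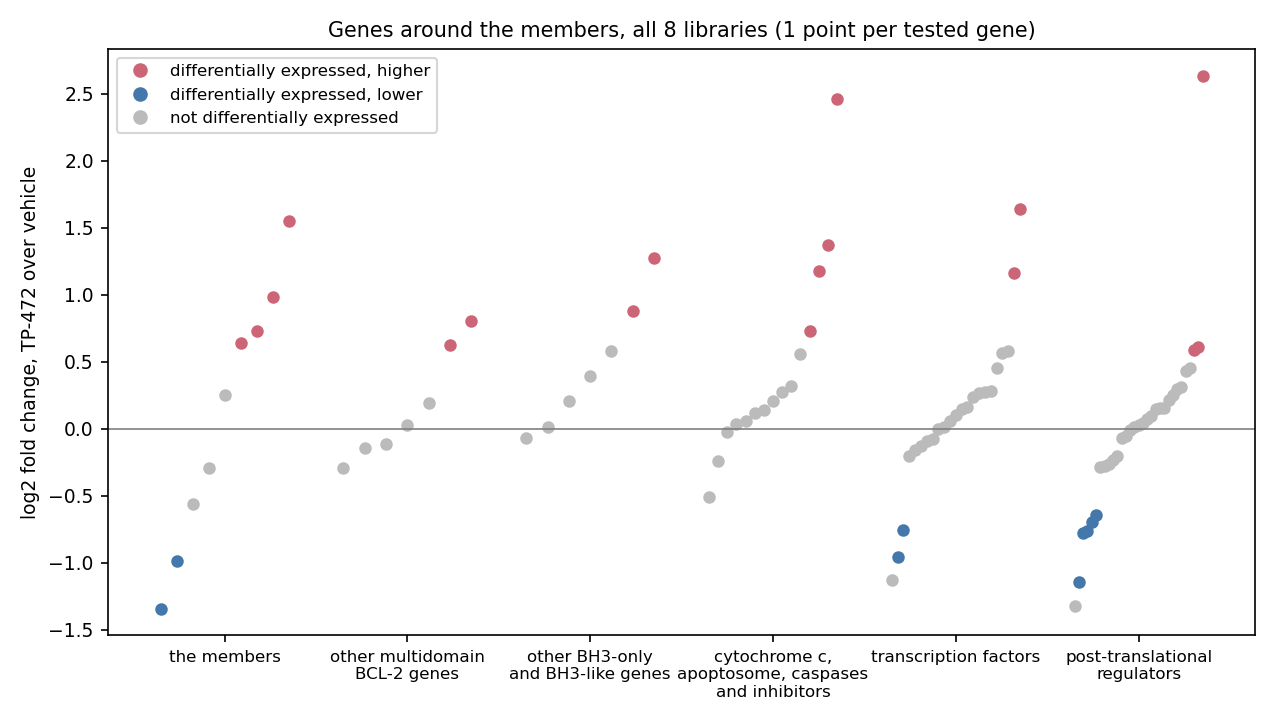
Log2 fold change of TP-472 over vehicle (vertical axis) for every tested member and every tested gene of the 5 other lists, with all 8 libraries; each point is a gene, ordered by its value within a list, red where differentially expressed upward, blue downward and grey otherwise. The members span -1.34 to 1.55, and the highest points are BIRC3 at 2.46 and DUSP6 at 2.63.

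The labelled cell type was checked against markers. Of the smooth muscle genes, CALD1 was at 200 ± 15.3 CPM, ACTA2 at 160.3 ± 16.7 CPM and TAGLN at 32.3 ± 3.396 CPM in vehicle-treated cells (SD, n = 4), whereas the defining genes MYH11 and MYOCD were under 1 CPM in every library. MYH11 was at 0, 0, 0 and 0.0281 CPM in vehicle replicates 1 to 4 and at 0.259, 0.225, 0.194 and 0.264 CPM in TP-472 replicates 1 to 4, higher in each treated library but too low to be tested. The summed level of the 8 smooth muscle markers was 438, 476, 520.4 and 479 CPM in vehicle replicates 1 to 4 and 379, 377, 373 and 370.1 CPM in TP-472 replicates 1 to 4, with 0 of the 6 tested called higher and 2 called lower. These were DES, the gene of desmin, at 3.25 ± 0.203 CPM in vehicle and 0.6295 ± 0.169 CPM with TP-472 (log2 fold change -2.36, adjusted p = 1.89e-04), and TAGLN (-0.67, adjusted p = 0.00397, under the fold limit at -0.47 with the GC trend removed). ACTA2 was the additional one called lower without vehicle replicate 3, which gave 3 (-0.59, adjusted p = 1.38e-04), and was at -0.55 with all libraries. The 5 immune markers summed to 6.68 to 7.95 CPM in vehicle and 9.01 to 12.3 CPM in treated libraries, nearly all of it CD68, with PTPRC and CD3E at or near 0. The 4 endothelial markers summed to 0.0554 to 0.144 CPM in vehicle and 0.414 to 0.581 CPM in treated libraries, without overlap, and none was high enough to be tested. The 5 epithelial markers summed to 17.5 to 23.1 CPM in vehicle and 20.4 to 26.8 CPM in treated libraries, with KRT18 called higher and KRT19 lower (KRT19 not with the GC trend removed, at -0.50). EPCAM, too low to be tested, was lower in each treated library (0.207 to 0.310 CPM, against 0.632 to 0.840 CPM in vehicle). Whether these shifts had a part in the changes of the members was not tested.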

How the data were processed

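RNA libraries of 8 SK-UT-1 samples (4 vehicle, 4 TP-472) were sequenced by the authors, whose methods call them strand-specific. The authors mapped reads with STAR, ran Salmon 1.4.0 on transcripts (build GRCh38) and summed the estimates by gene with tximport and GENCODE. The values deposited by the authors are estimated counts, neither scaled nor filtered. Here they were rounded, filtered (more than 1 CPM in at least 4 of 8 libraries) and TMM-scaled, and tested with edgeR 4.0.16 in R 4.3.3, with Benjamini-Hochberg adjustment over all 14073 genes and no covariate. Positions, transcript lengths and GC content are from GENCODE release 29 (GC content for 99.3% of the genes tested). The GC trend was removed with a loess curve per library (span 0.5) entered as an offset. Exact permutation tests compared log2 CPM (prior count 2). Alternatives used DESeq2 1.42.0 and limma 3.58.1. The calculations were tested on simulated data.

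The named genes are all 10 members, up to 5 differentially expressed genes per list, BCL2, BCL2L2, BAX, BAK1 and BOK always, and the 3 genes most correlated with each called member. Markers and a few list genes were named outside this rule, after their values were seen. The members and lists were chosen with earlier results of these data known, so counts over them are descriptions. Of the genes this rule names, 2 are not reported here, and they are included in the counts of their lists.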

Additional observations from a re-analysis of the deposited data

Results flagged for a closer look

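Among 26 groups of 4 libraries examined (each member in each treatment, and 3 measures of the libraries), 3 had a library whose gap to the nearest of the others exceeded Dixon's 95% critical value for 4 samples. Chance alone gives about 1 in 20 for independent groups, but these groups share the same libraries, so the rate is no measure of chance here. BCL2A1 in vehicle had no count and could not be flagged. All 3 were vehicle replicate 3, as the highest of its group: BCL2L1 at 78.5 CPM (gap 0.95 of the range), BBC3 at 13.3 CPM (0.89) and BAD at 67.3 CPM (0.942). These genes have 56.2%, 64.8% and 64.9% GC. Their log2 fold changes of -0.29, -0.98 and -0.56 were -0.11, -0.56 and -0.11 without that library.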

How the results depend on the processing

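The call of BMF held in every alternative in which it was tested. So did that of BIK, which the filter of 1 CPM admits only through the treated libraries, also without a filter. A filter of more than 5 CPM removed both genes. No alternative reversed the direction of a tested member, except for BAD as given below. The number of members called, 6 with all libraries, ran from 3 to 5 with 1 library left out, and was 3 without TP-472 replicate 2 or 3; the number of genes called then ran from 2690 to 4223. The number of members was 7, BCL2A1 added, with DESeq2 (5575 of 23471 genes called, 23.8%) and without a filter (5090 of 33192, 15.3%). MCL1 missed the fold limit at 0.54 with quality weights. BCL2L11 was not called with total-count scaling (0.62, adjusted p = 0.071), with the GC trend removed (0.55) or with replicate number as a block (0.65, adjusted p = 0.0555), and ran from 0.49 to 0.82 with 1 library left out. BBC3 was not called in limma-voom (-0.88, adjusted p = 0.0524), with quality weights (-0.56), with the GC trend removed (-0.44) or with the replicate block (-0.88, adjusted p = 0.0691), and ran from -1.14 to -0.56 with 1 library left out, keeping its call in 3 of 8 such fits. PMAIP1 ran from 0.77 to 1.14 with 1 library left out and lost its call without vehicle replicate 1 (adjusted p = 0.0558) or TP-472 replicate 2 (0.0538) or 3 (0.0504). With vehicle replicate 3 left out and the GC trend removed together, an alternative chosen after seeing the data, 3 members were called (BIK, PMAIP1 and BMF) against 25.2% of all genes: MCL1 was at 0.55, BCL2L11 at 0.54 and BBC3 at -0.43, and BAD turned to 0.018 (adjusted p = 0.929). Same-numbered libraries share only a number: their deviations correlated at -0.055, 0.12, -0.17 and -0.18, and the block gave 3055 genes called, 4 of them members. Values are log2 fold changes.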
